A study of Mus musculus with 8 samples.

Results

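MERVL and the MaLR retrotransposons were followed in mouse testis through 147 rows of a table of RNA read counts. The rows were chosen by name alone, as the repeat families whose names start with MERVL, MT2, MTA, MTB, MTC, MTD, MTE, ORR1 or MLT, out of 1205 repeat families and 55292 rows in all. By name they fall into MERVL with 2 rows, MT2 with 6, MTA with 2, MTB with 4, MTC with 2, MTD with 2, MTE with 9, ORR1 with 29, MLT1 with 60, MLT2 with 10, MLTR with 20, and the single row MLT-int. Long terminal repeats (LTRs) make up 89 of the rows, and the other 58, whose names end in -int, are internal parts of an element. The series sequenced polyadenylated RNA of whole testis from C57BL/6 males to compare mutants of Dnmt3a, a DNA methyltransferase of the male germ line, with wildtype. Animals with the genotype Dnmt3A WT/WT (WT) and Dnmt3A KO/KO (KO) were taken at 19 and at 25 days post partum (dpp), and each of these 4 groups has 2 libraries. Neither the deleted part of Dnmt3a nor the cells it was removed in are stated in the labels. They also do not say whether the libraries of a group came from separate animals. P-values thus measure the spread between these libraries, pooled over the 4 groups, which may be technical.

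MERVL is an endogenous retrovirus of the mouse whose LTR is called MT2_Mm, and it is best known for its burst of transcription in the 2-cell embryo, where the factor DUX activates it. MaLRs, the LTR retrotransposons of the MT, ORR1 and MLT1 names, carry an internal part without retroviral genes, and their LTRs often act as promoters or first exons of host genes, as an MTC copy does for the short Dicer1 form of mouse oocytes. MLT1 elements are old and found across mammals, while MTA and the ORR1A rows belong to the young, rodent part of the MaLR family. MT2 and MLT2 LTRs belong to ERVL elements rather than to MaLRs. The MLTR rows share letters with MLT1 and MLT2, but the name alone does not place them in either family, so counts are also given without them.

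Levels are in CPM, a row's reads per 1000000 reads counted over the gene rows of the same library, whose total ran from 22515812 to 50445334. A row sums the reads of all copies of a family, within or outside genes, and the files give no family lengths, so levels of different families are not compared. Repeat rows together held 4.27% to 6.02% of the gene counts, and the 147 rows held 7.56% to 11.4% of the repeat counts. After a filter on low counts 138 of the 147 rows were tested. The 9 rows left out were internal MLT1 parts with at most 41 counts over the 8 libraries, and 2 of them had no count. Of the rows tested, 11 had under 10 counts in both libraries of at least 1 group, and 2 of these had so in 3 groups. Those 2 passed the filter through 1 group alone and stay in the counts of rows given below. A row is said to have risen or fallen where edgeR's quasi-likelihood test, adjusted over the 1054 repeat rows tested, gave a p under 0.05. Fold changes are log2 values of that fit with the standard error (SE).

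The libraries also differed in the genes of testis cell types. Pachytene spermatocyte genes, 7 in number, summed to 883 and 2148 CPM in WT and to 112 and 148 in KO at 19 dpp, and to 6857 and 6105 in WT against 582 and 1156 in KO at 25 dpp. EdgeR's test had all 7 lower in KO at 19 dpp and 6 of 7 lower at 25 dpp. The sum of 10 Sertoli cell genes ran the other way, at 4681 and 3442 in WT against 7607 and 6711 in KO at 19 dpp, and at 1129 and 1702 in WT against 6866 and 5516 in KO at 25 dpp. Genes of elongating spermatids summed to 1927 in replicate 1 and to 249 in replicate 2 of WT at 25 dpp and to at most 1.14 in the other 6 libraries, where Prm1, Prm2 and Tnp2 had no count. Round spermatid genes, 6 in number, summed to 680 and 351 there and to at most 29.2 elsewhere. Spermatogonial genes summed to 105 and 153 in WT at 25 dpp and to 331 to 551 elsewhere, and genes of early meiotic prophase to 186 and 352 in KO at 19 dpp and to 614 to 1425 elsewhere. Leydig cell genes summed to 28.8 and 55.9 in KO at 25 dpp and to 83.0 to 406 elsewhere, those of myoid cells ran from 154 to 624, of endothelial cells from 19.4 to 139, of macrophages from 26.0 to 124 and of red blood cells from 25.8 to 362. Replicate 1 of KO at 25 dpp held 13.1 CPM of 3 epididymis genes, against at most 0.159 elsewhere. In whole testis, fewer cells of a type and less RNA per cell cannot be told apart, and the part of this cell content in the differences below was not tested. Dnmt3a stood at 168 and 155 in WT against 121 and 119 in KO at 19 dpp, and at 35.4 and 58.4 in WT against 83.9 and 71.7 in KO at 25 dpp. Since the missing part is not stated, these levels are no check of the genotype labels.

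At 19 dpp the MERVL and MaLR rows were more often lower than higher in KO. Of the 138 rows tested 30 fell and 2 rose, where 14.2% of all repeat rows fell and 3.04% rose. The median log2 fold change was −0.25 over the 138 rows and −0.11 over all repeat rows. Without the MLTR rows 27 fell and 2 rose. The rows that fell included 12 of 51 MLT1, 4 of 9 MTE, 5 of 29 ORR1, 3 of 10 MLT2 and 3 of 20 MLTR rows, together with MT2A, MTC and MLT-int. MERVL, MTA, MTB and MTD had no row past the threshold. The number of falls changed with single libraries. It was 5 when the first KO library of 19 dpp was left out, 3 when the second was, and 15 when the second WT library of that age was. With TMM factors of the gene rows, another scaling, the split was 18 lower and 3 higher.

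At 25 dpp, with gene totals as the scale, calls differed in direction between name groups and also within some, such as MT2, MTE and ORR1. MERVL-int, MT2_Mm, both MTA rows and MTB-int rose in KO with gene totals as the scale, of which MERVL-int, MT2_Mm and MTA_Mm turned negative with DESeq2 size factors, while most MLT1 and MTE calls fell. Of the 138 rows 53 fell and 18 rose, where 25.2% of all repeat rows fell and 23% rose, and the median was −0.23 against 0.02 for all repeat rows. Without the MLTR rows 49 fell and 15 rose. Among the LTR rows 38 of 89 fell and 6 rose, and among the internal rows tested 15 of 49 fell and 12 rose. The direction of a rise at this age depends on the scaling, because TMM factors moved the median of all repeat rows by −0.40, to −0.39, and left 3 rows higher and 85 lower. Leaving out replicate 1 of KO at 25 dpp gave 9 higher and 39 lower rows. Leaving out its replicate 2 gave 12 and 47, and leaving out the first WT library of that age gave 12 and 36.

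**Figure D1:**
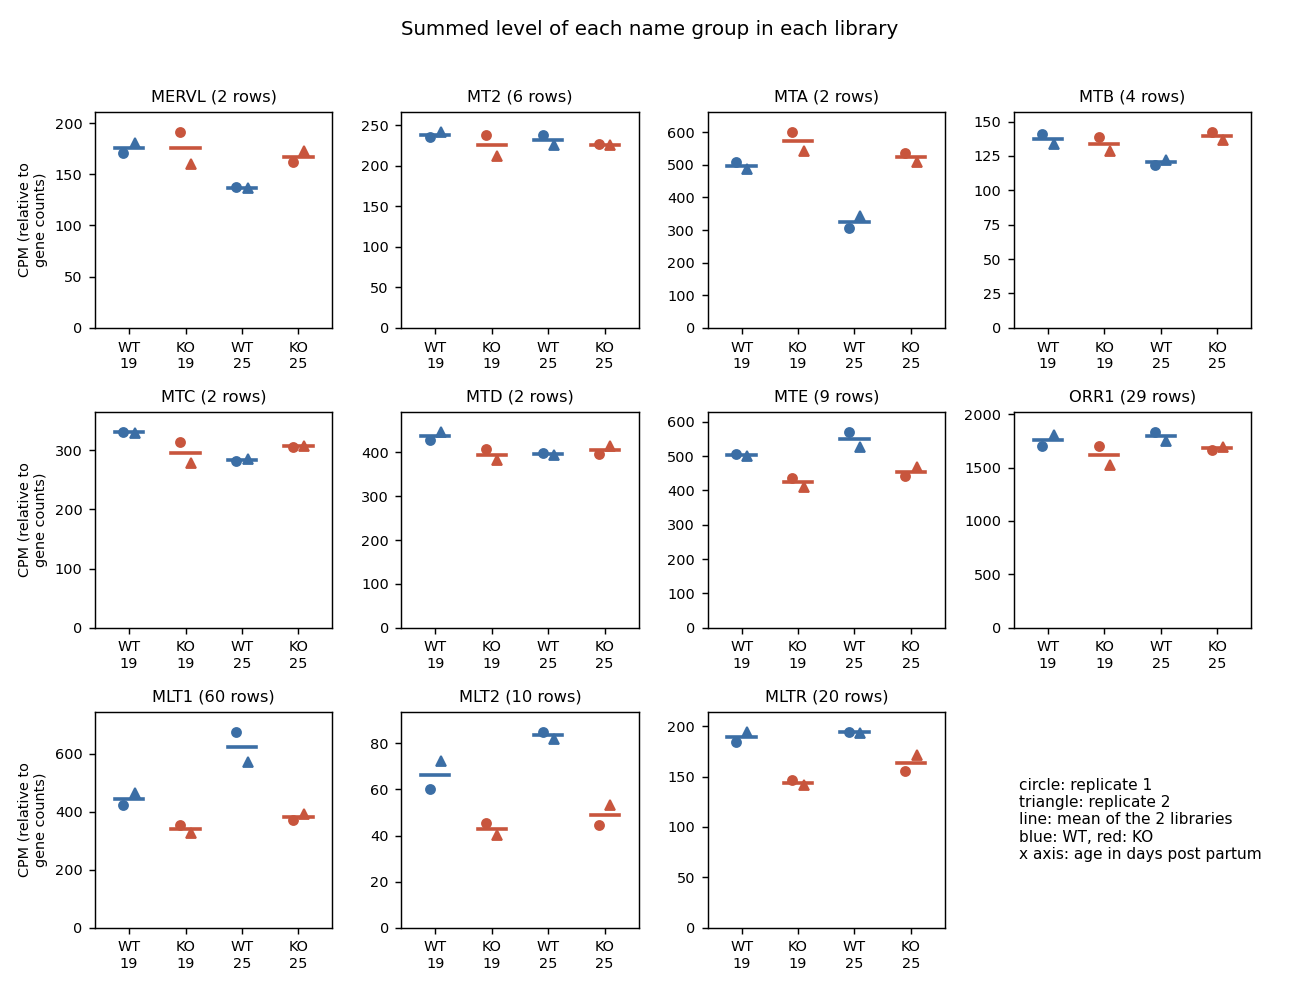
Summed level of each name group in each library, in CPM (relative to gene counts), with age in dpp on the x axis. MLT1 in WT stood at 423 and 466 at 19 dpp and at 677 and 572 at 25 dpp, while the 4 KO libraries lay between 328 and 392, and MTA in WT at 25 dpp, at 307 and 342, lay below every other library.

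Between the ages, WT and KO were compared on their own. In WT 35 of the 138 rows rose from 19 to 25 dpp and 18 fell, where 17.5% of all repeat rows rose and 24.4% fell. The rows that rose included 21 of 51 MLT1 rows, and those that fell included MERVL-int, MT2_Mm, both MTA rows, MTB-int and MTC-int, of which all but MTA_Mm-int turned positive with DESeq2 size factors. The fall of MTA_Mm did not pass without the first WT library of 19 dpp (−0.32) or of 25 dpp (−0.33), and that of MTB-int not without the first WT library of 25 dpp (−0.44). TMM factors moved the median of all repeat rows by 0.47 and gave 78 higher and 3 lower. Leaving out replicate 1 of 25 dpp gave 12 higher and 7 lower, and leaving out replicate 1 of 19 dpp gave 19 and 13. In KO 4 rows rose and none fell by edgeR, where 2.28% of all repeat rows rose and 0.759% fell, and 25 of the 138 rows had an unadjusted p under 0.05. The 4 rows that rose were ORR1C2-int, ORR1D1-int, MLT1G3 and MLT1G3-int, of which the first and second were named after their values were seen. Each of these calls ended when the first KO library of 19 dpp was left out, and those of ORR1C2-int and MLT1G3-int also without some other KO libraries. DESeq2's Wald test called 6 rows higher and none lower. The comparison of KO with WT at 25 dpp and that of the ages in WT share the WT libraries of 25 dpp, so a low value in those libraries enters both.

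Whether the KO difference itself changed with age was tested as a difference of differences. It rose in 10 and fell in 4 of the 138 rows, where 11.4% and 4.46% of all repeat rows did. Those that rose were mostly internal parts, among them MTA_Mm-int, MTB-int, ORR1B1-int and MLT1G3-int, and MLT1H-int was among those that fell. With TMM factors the split was 2 higher and 26 lower, and it was 2 to 9 higher and 0 to 7 lower when 1 library was left out.

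**Figure D2:**
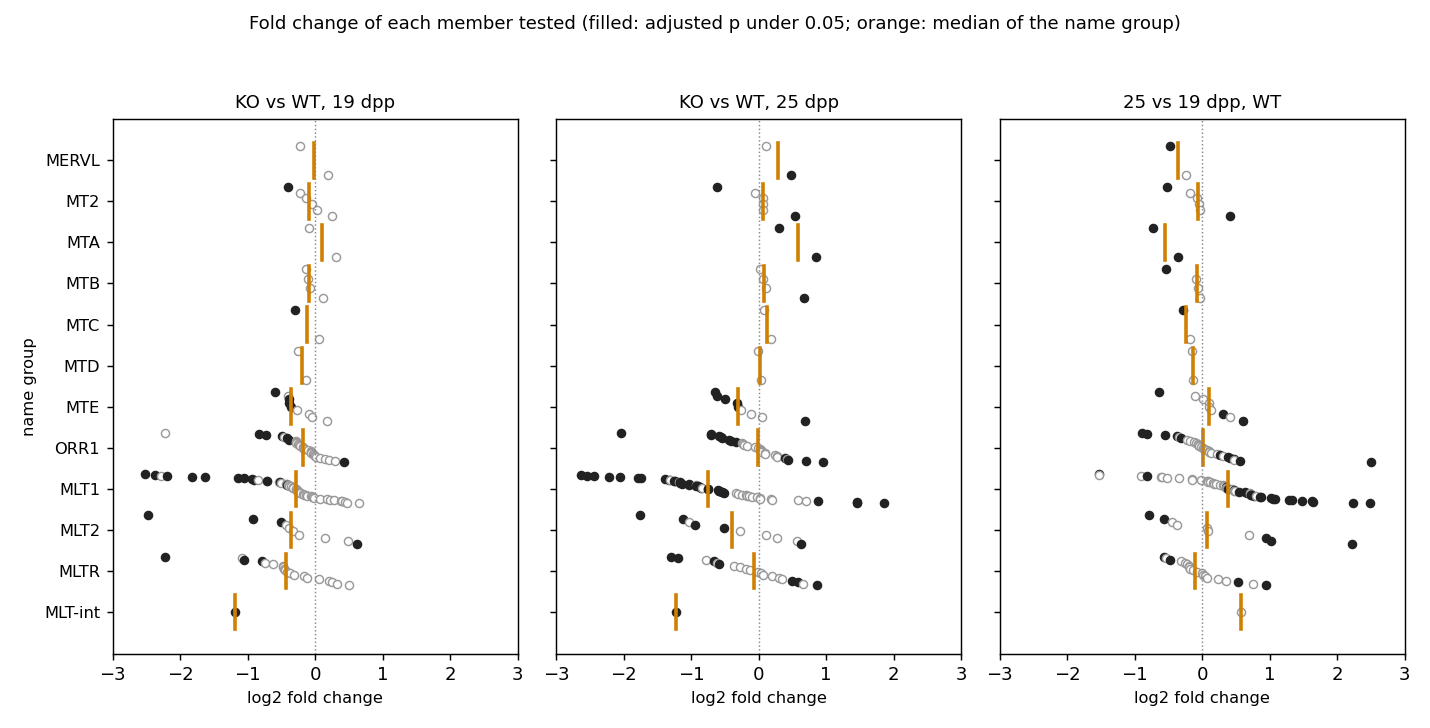
Log2 fold change (x axis) of the rows tested, by name group (y axis), for KO against WT at 19 and 25 dpp and for 25 against 19 dpp in WT, scaled by gene totals. MLT1C-int, at −4.29 and called lower in KO at 25 dpp, lies outside the axis drawn. This row passed the filter on low counts through WT at 25 dpp alone. Its mean was 0.396 CPM there and at most 0.0967 CPM in each other group. Filled points passed adjusted p under 0.05, orange bars are group medians, and the MLT1 median moves from −0.29 at 19 dpp to −0.75 at 25 dpp.

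MERVL-int, the internal part of the element, stood at 82.9 and 91.6 CPM in WT against 114 and 86.0 in KO at 19 dpp. At 25 dpp it stood at 61.4 and 63.5 in WT against 85.3 and 89.0 in KO. WT at 25 dpp was thus the low group, below all 6 other libraries, and the groups overlapped at 19 dpp. The KO difference was 0.19 (SE 0.124, edgeR adjusted p = 0.310) at 19 dpp and turned to −0.02 without replicate 1 of KO at 19 dpp. It was 0.48 (SE 0.125, edgeR adjusted p = 0.00485) at 25 dpp, and in WT the row fell by 0.48 (SE 0.125, edgeR adjusted p = 0.00601) from 19 to 25 dpp. The change in WT was −0.46 and did not pass without replicate 1 of 25 dpp, and it was −0.02 with TMM factors. In KO the change between the ages was −0.20 (SE 0.124, edgeR adjusted p = 0.381). The KO difference at 25 dpp was 0.09 with TMM factors and −0.10 with DESeq2 size factors of the genes, and passed with neither. The row MERVL_2A-int, a related internal part, lay between 73.2 and 88.4 in all 8 libraries and passed in no comparison of KO with WT.

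MT2_Mm, the LTR of MERVL, had 39.2 and 39.1 CPM in WT against 50.0 and 43.0 in KO at 19 dpp. At 25 dpp it had 28.5 and 26.1 in WT against 39.5 and 39.6 in KO. The groups did not overlap at either age, and WT at 25 dpp was again the lowest. The difference was 0.25 (SE 0.120, edgeR adjusted p = 0.178) at 19 dpp and 0.54 (SE 0.120, edgeR adjusted p = 0.00186) at 25 dpp, the second being 0.14 and not past the threshold with TMM factors and −0.05 with DESeq2 size factors. Without replicate 1 of KO at 19 dpp the difference at that age was 0.14. MT2A, another ERVL LTR, went the opposite way. It had 45.4 and 48.5 in WT against 35.2 and 35.6 in KO at 19 dpp, then 64.1 and 61.0 in WT against 41.8 and 40.0 in KO at 25 dpp. Both WT pairs lay above both KO pairs. MT2A fell in KO by 0.41 (SE 0.111, edgeR adjusted p = 0.0210) at 19 dpp and by 0.61 (SE 0.110, edgeR adjusted p = 3.84e-04) at 25 dpp, and rose in WT between the ages by 0.41 (SE 0.110, edgeR adjusted p = 0.00756). The fall at 25 dpp also passed with TMM and DESeq2 factors, whereas the one at 19 dpp was −0.36 without replicate 2 of WT, −0.40 without replicate 1 of KO and −0.42 without replicate 2 of KO at that age, and passed in none of these. The rise in WT was 0.37 without replicate 1 of 19 dpp and 0.38 without replicate 1 of 25 dpp and did not pass there. MT2B, MT2B1, MT2B2 and MT2C_Mm passed in no comparison of KO with WT.

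**Figure D3:**
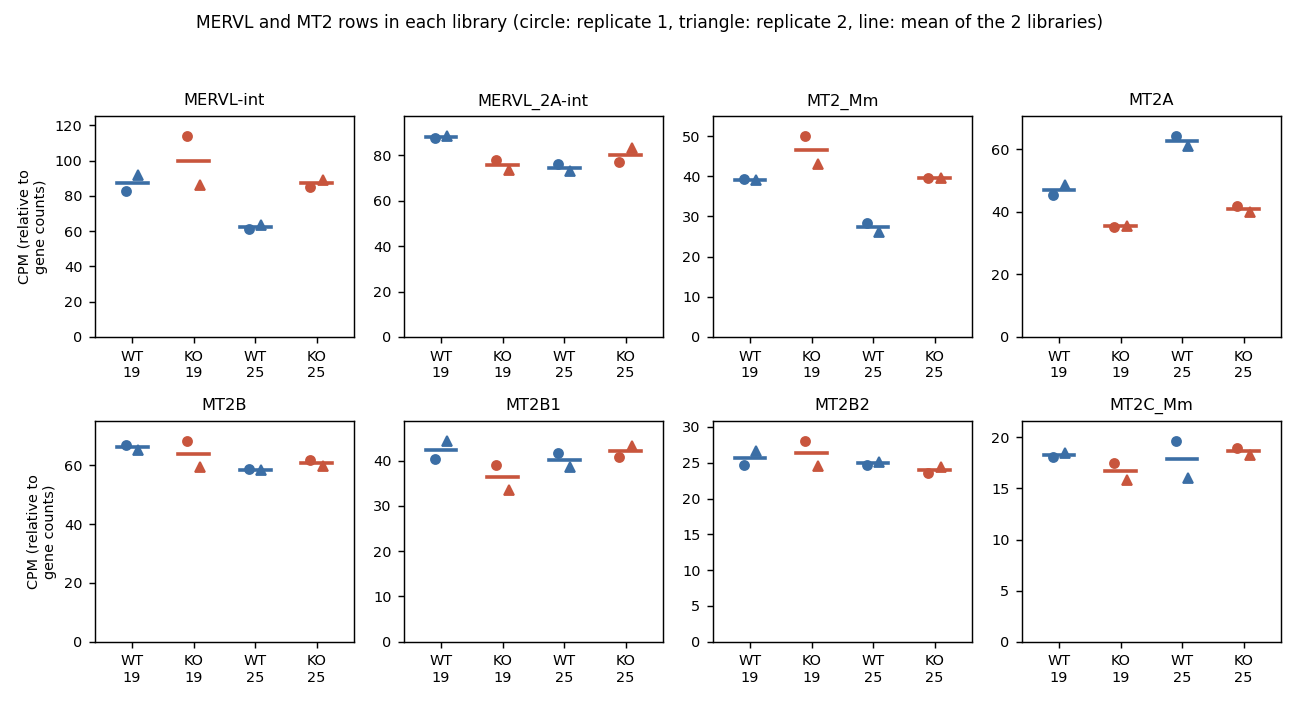
MERVL and MT2 rows in each library, in CPM (relative to gene counts), with genotype and age in dpp on the x axis. MERVL-int and MT2_Mm are lowest in WT at 25 dpp, MT2A is highest there at 64.1 and 61.0, and the other 5 rows passed in no comparison of KO with WT.

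A ratio of rows within 1 library does not depend on how libraries are scaled. The ratios given here were chosen after the values were seen, and with 2 libraries against 2 the smallest exact two-sided permutation p is 0.333. Counts of MT2_Mm over those of MT2A were 0.863 and 0.805 in WT against 1.42 and 1.21 in KO at 19 dpp. At the later age the ratios were 0.444 and 0.428 in WT against 0.946 and 0.992 in KO. The KO libraries thus lay above the WT libraries at both ages, and the WT libraries were lower at 25 than at 19 dpp. MERVL-int over MERVL_2A-int was 0.945 and 1.04 in WT against 1.46 and 1.17 in KO at 19 dpp, and 0.807 and 0.867 in WT against 1.11 and 1.07 in KO at 25 dpp. The summed MERVL rows over the summed MLT1 rows gave 0.403 and 0.387 in WT against 0.543 and 0.487 in KO at 19 dpp, and 0.203 and 0.239 in WT against 0.434 and 0.439 in KO at 25 dpp. A ratio shows unequal change and not which of the rows changed.

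**Figure D4:**
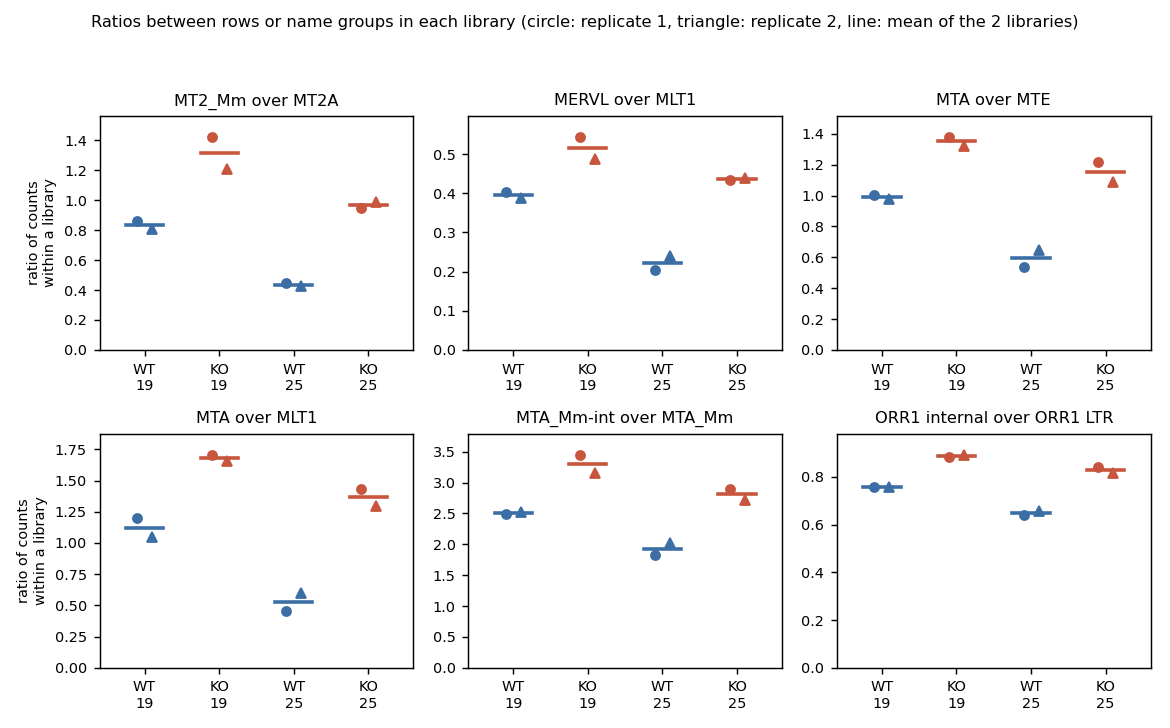
Ratios of counts between rows or summed name groups within each library, with genotype and age in dpp on the x axis. In all 6 panels both KO libraries lie above both WT libraries at each age, and WT at 25 dpp is lowest, for example 0.444 and 0.428 for MT2_Mm over MT2A.

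MTA_Mm-int is the internal part of the youngest MT family. It stood at 362 and 349 CPM in WT against 466 and 412 in KO at 19 dpp, and at 199 and 229 in WT against 399 and 372 in KO at 25 dpp. KO lay above WT at both ages without overlap, and WT was lower at 25 than at 19 dpp. The difference was 0.31 (SE 0.104, edgeR adjusted p = 0.0538) at 19 dpp, and it passed there with TMM factors (0.36) and without replicate 1 or 2 of WT at 25 dpp. At 25 dpp the row rose in KO by 0.85 (SE 0.104, edgeR adjusted p = 1.88e-05), and by 0.46 with TMM factors and 0.28 with DESeq2 size factors, which both passed. In WT it fell by 0.73 (SE 0.104, edgeR adjusted p = 7.39e-05) between the ages. Its LTR, MTA_Mm, had 109 and 113 in WT against 138 and 137 in KO at 25 dpp, where the rise of 0.31 (SE 0.0965, edgeR adjusted p = 0.0150) turned to −0.09 with TMM factors. That rise did not pass without replicate 1 of WT (0.28), replicate 1 of KO (0.30) or replicate 2 of KO (0.31) at 25 dpp. MTA_Mm-int over MTA_Mm was 2.49 and 2.52 in WT against 3.44 and 3.16 in KO at 19 dpp, and 1.83 and 2.02 in WT against 2.90 and 2.72 in KO at 25 dpp.

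Of the other MT families, MTB, MTC and MTD had few calls. With gene totals as the scale, most MTE calls ran opposite to those of MTA. MTB-int had 25.5 and 29.4 CPM in WT against 45.9 and 41.7 in KO at 25 dpp and rose by 0.67 (SE 0.124, edgeR adjusted p = 4.48e-04), a value that was 0.29 and did not pass with TMM factors. At 19 dpp it had 39.9 and 39.6 in WT against 45.7 and 40.5 in KO (0.12, SE 0.124, edgeR adjusted p = 0.587), so WT at 25 dpp stood below the other groups. MTC fell in KO by 0.30 (SE 0.0953, edgeR adjusted p = 0.0435) at 19 dpp, from 213 and 217 to 181 and 169, and this call ended when any 1 of the 8 libraries was left out, with values of −0.35 to −0.25. MTC-int, MTD and MTD-int passed in no comparison of KO with WT. MTC-int fell in WT between the ages by 0.29 (SE 0.110, edgeR adjusted p = 0.0466), but was 0.18 higher with TMM factors and did not pass without any 1 of 6 libraries, at −0.32 to −0.26.

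Among MTE rows, older than MTA, 5 of 9 fell and 1 rose in KO at 25 dpp, where 25.2% of all repeat rows fell and 23% rose, with a median of −0.30. Only 1 fell when the first WT library of that age was left out, and 2 when the first KO library was. Summed, they held 506 and 499 CPM in WT against 437 and 410 in KO at 19 dpp, and 571 and 526 in WT against 441 and 467 in KO at 25 dpp. WT lay above KO at both ages. MTEa had 147 and 131 in WT against 94.9 and 103 in KO at 25 dpp, a fall of 0.49 (SE 0.106, edgeR adjusted p = 0.00139), and it rose in WT between the ages by 0.30 (SE 0.106, edgeR adjusted p = 0.0317). That rise was 0.23 without replicate 1 of 19 dpp and 0.22 without replicate 1 of 25 dpp, and passed in neither. MTE2b had 105 and 90.7 in WT against 75.2 and 74.6 in KO at 19 dpp, and 113 and 102 in WT against 87.7 and 86.2 in KO at 25 dpp. It fell by 0.39 (SE 0.107, edgeR adjusted p = 0.0237) and by 0.30 (SE 0.107, edgeR adjusted p = 0.0278), calls that ended without either KO library or without replicate 1 of WT at the same age, at −0.39 to −0.28 and at −0.32 to −0.23. MTE2a, the row with the third highest level of this group, ran from 80.1 to 90.3 over the 8 libraries and passed at neither age. MTE2a-int, named after its values were seen, was the MTE row that rose in KO at 25 dpp (0.68, SE 0.159, edgeR adjusted p = 0.00244). In WT its change between the ages was −0.64 (SE 0.160, edgeR adjusted p = 0.00478), so it ran the same way as MTA_Mm-int. MTA over MTE, each summed, was 1.003 and 0.976 in WT against 1.38 and 1.32 in KO at 19 dpp, and 0.538 and 0.650 in WT against 1.22 and 1.09 in KO at 25 dpp.

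ORR1 rows, rodent MaLRs, were mixed. At 25 dpp 9 of 29 fell and 4 rose in KO, with a median of −0.02. All 4 that rose were internal parts, but internal parts were also among the falls. These were ORR1A4-int, ORR1B2-int, ORR1C1-int, ORR1E-int and ORR1G-int. The share that fell, 31%, is near the 25.2% of all repeat rows, and the share that rose, 13.8%, is below their 23%. Of the 4 rows that rose, ORR1B1-int did so most. It stood at 142 and 130.3 CPM in WT against 172 and 160.1 in KO at 19 dpp, and at 74.8 and 78.9 in WT against 152 and 146 in KO at 25 dpp. KO lay above WT at both ages, and WT at 25 dpp was the lowest group by far. The difference was 0.29 (SE 0.100, edgeR adjusted p = 0.0594) at 19 dpp and 0.96 (SE 0.101, edgeR adjusted p = 5.22e-06) at 25 dpp, where TMM factors gave 0.56 and DESeq2 size factors 0.38 and both passed. In WT it fell by 0.82 (SE 0.101, edgeR adjusted p = 3.27e-05) between the ages. The LTR of the same name, ORR1B1, had 116 and 134 in WT against 99.7 and 90.6 in KO at 19 dpp, and 137 and 131 in WT against 107 and 119 in KO at 25 dpp, with KO below WT. It fell at 19 dpp by 0.39 (SE 0.110, edgeR adjusted p = 0.0243), which did not pass without the second WT library (−0.29) or either KO library (−0.46 and −0.32) of that age nor with TMM factors (−0.34), and at 25 dpp the difference was −0.24 (SE 0.109, edgeR adjusted p = 0.0741), and −0.64 and past the threshold with TMM factors. ORR1B1 was named after its values were seen.

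ORR1A0-int rose in KO at both ages. It had 104 and 109 CPM in WT against 152 and 134 in KO at 19 dpp (0.43, SE 0.117, edgeR adjusted p = 0.0210), and 103 and 96.6 in WT against 149 and 121 in KO at 25 dpp (0.44, SE 0.116, edgeR adjusted p = 0.00561). The groups did not overlap at either age. The rise at 19 dpp did not pass without replicate 1 (0.33) or replicate 2 (0.52) of KO, and the rise at 25 dpp was 0.28 without replicate 1 of KO and 0.04 with TMM factors, passing in neither, and −0.14 with DESeq2 size factors. ORR1D-int had 15.4 and 16.4 in WT against 18.1 and 13.8 in KO at 19 dpp, and 8.48 and 8.69 in WT against 14.1 and 13.7 in KO at 25 dpp. It rose in KO at 25 dpp by 0.70 (SE 0.159, edgeR adjusted p = 0.00207), a difference that was 0.31 and did not pass with TMM factors. ORR1G-int, at low level, rose in WT between the ages from 0.184 and 0.503 to 1.94 and 2.10 (2.50, SE 0.418, edgeR adjusted p = 2.73e-04). In KO its change between the ages was 2.69 (SE 0.736, edgeR adjusted p = 0.0594). Its KO difference was −2.23 (SE 0.783, edgeR adjusted p = 0.0609) at 19 dpp. At 25 dpp that difference was −2.045 (SE 0.395, edgeR adjusted p = 6.64e-04), a fall that passed. ORR1A2, the LTR row with the highest ORR1 level, held 109 to 152 and passed at neither age. Internal over LTR counts of all ORR1 rows were 0.760 and 0.757 in WT against 0.885 and 0.891 in KO at 19 dpp, and 0.643 and 0.658 in WT against 0.840 and 0.816 in KO at 25 dpp. The internal share of ORR1 counts was thus higher in both KO libraries at each age. Single families differed in this. ORR1A4-int over ORR1A4 was 1.61 and 2.22 in WT against 2.34 and 2.04 in KO at 19 dpp, and 1.97 and 2.10 in WT against 1.74 and 1.94 in KO at 25 dpp. ORR1C1-int, named after its values were seen, fell in KO by 0.49 (SE 0.149, edgeR adjusted p = 0.0375) at 19 dpp and by 0.54 (SE 0.146, edgeR adjusted p = 0.00605) at 25 dpp, where the LTR row ORR1C1 differed by 0.02 (SE 0.130) and 0.04 (SE 0.129) and passed at neither age. The fall of ORR1C1-int at 19 dpp did not pass without any 1 of the 4 libraries of that age (−0.56 to −0.42) nor with TMM factors (−0.43), and that at 25 dpp not without the first KO library of that age (−0.48). ORR1D1-int, also named after its values were seen, had 70.9 and 67.4 CPM in WT against 39.0 and 44.1 in KO at 19 dpp, and 55.1 and 56.1 in WT against 67.5 and 78.4 in KO at 25 dpp. KO was thus the low group at 19 dpp and the high group at 25 dpp. It fell by 0.73 (SE 0.116, edgeR adjusted p = 9.28e-04) at 19 dpp and rose by 0.39 (SE 0.115, edgeR adjusted p = 0.0106) at 25 dpp, the second turning to −0.0058 with TMM factors and not passing without the first WT library (0.38) or the second KO library (0.28) of that age. ORR1C2-int fell by 0.83 (SE 0.161, edgeR adjusted p = 0.00344) at 19 dpp, from 16.3 and 18.9 CPM in WT to 11.1 and 8.74 CPM in KO, a call that ended without the second KO library of 19 dpp (−0.67).

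Among MLT1 rows, the old MaLRs, calls in KO against WT were mostly falls and calls in WT between the ages mostly rises. Summed, the 60 rows held 423 and 466 CPM in WT against 353 and 328 in KO at 19 dpp, and 677 and 572 in WT against 374 and 392 in KO at 25 dpp. Of the 51 rows tested 29 fell and 4 rose in KO at 25 dpp (56.9% lower and 7.84% higher, against 25.2% and 23% of all repeat rows), with a median of −0.75, and 18 did not pass. The count of falls was 39 with TMM factors, and leaving out 1 library at a time it was between 23, without replicate 1 of WT at 25 dpp, and 30. At 19 dpp 12 fell and none rose by edgeR (23.5% lower, against 14.2% of all repeat rows) and 39 did not pass, where TMM factors gave 10 lower and the fit without replicate 1 or replicate 2 of KO at 19 dpp gave 1 and that without replicate 2 of WT gave 7. In WT between the ages 21 rose and 2 fell (41.2% higher, against 17.5% of all repeat rows) and 28 did not pass, with 12 higher without replicate 1 of 19 dpp and 8 without replicate 1 of 25 dpp, and the median was 0.38. The pachytene and spermatid genes given above were likewise highest in WT at 25 dpp, and their part in the MLT1 values was not tested.

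The 3 MLT1 rows of highest level, all LTRs, behaved alike at 25 dpp. MLT1D had 61.0 and 54.5 CPM in WT against 36.6 and 40.2 in KO and fell by 0.59 (SE 0.127, edgeR adjusted p = 0.00142). MLT1A0 had 59.2 and 51.7 in WT against 38.0 and 37.8 in KO and fell by 0.55 (SE 0.118, edgeR adjusted p = 0.00142). MLT1A1 had 61.8 and 48.4 in WT against 29.5 and 36.0 in KO and fell by 0.75 (SE 0.148, edgeR adjusted p = 8.21e-04). All 3 also passed with TMM and DESeq2 factors and without each library in turn, at −0.92 to −0.45. At 19 dpp MLT1A1 fell by 0.52 (SE 0.149, edgeR adjusted p = 0.0291), which did not pass without replicate 2 of WT (−0.37) or replicates 1 (−0.55) and 2 (−0.49) of KO, while MLT1D at −0.33 (edgeR adjusted p = 0.0927) and MLT1A0 at −0.23 (edgeR adjusted p = 0.215) missed the threshold. The rises of these 3 rows in WT between the ages, 0.34 to 0.47, passed with all libraries but not without replicate 1 of WT at 19 dpp (0.29 to 0.34) or at 25 dpp (0.26 to 0.28).

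MLT1G3 is an LTR row with 73 to 2041 counts per library. It had 10.4 and 13.3 CPM in WT against 3.24 and 4.34 in KO at 19 dpp, and 40.5 and 33.7 in WT against 7.97 and 9.96 in KO at 25 dpp. WT and KO were far apart at both ages, and both genotypes were higher at 25 dpp. MLT1G3 fell in KO by 1.63 (SE 0.197, edgeR adjusted p = 1.32e-04) at 19 dpp and by 2.05 (SE 0.184, edgeR adjusted p = 1.69e-06) at 25 dpp, and rose between the ages by 1.65 (SE 0.181, edgeR adjusted p = 2.54e-05) in WT and 1.22 (SE 0.198, edgeR adjusted p = 0.00240) in KO. The rise in KO was 1.04 and did not pass without replicate 1 of KO at 19 dpp. Its internal part, MLT1G3-int, rests on 8 to 55 counts per library and ran differently. It had 1.88 and 1.42 in WT against 0.355 and 0.542 in KO at 19 dpp, and 0.674 and 0.439 in WT against 1.62 and 1.48 in KO at 25 dpp. KO was the low group at 19 dpp and the high group at 25 dpp. The differences were −1.82 (SE 0.365, edgeR adjusted p = 0.00426) and 1.46 (SE 0.325, edgeR adjusted p = 0.00184), the first not passing without replicate 1 (−1.59) or 2 (−2.19) of KO at 19 dpp. In KO it rose between the ages by 1.74 (SE 0.366, edgeR adjusted p = 0.0147), a call that ended without either KO library of 19 dpp (1.51 and 2.12) and also without the first KO library of 25 dpp (1.67).

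**Figure D5:**
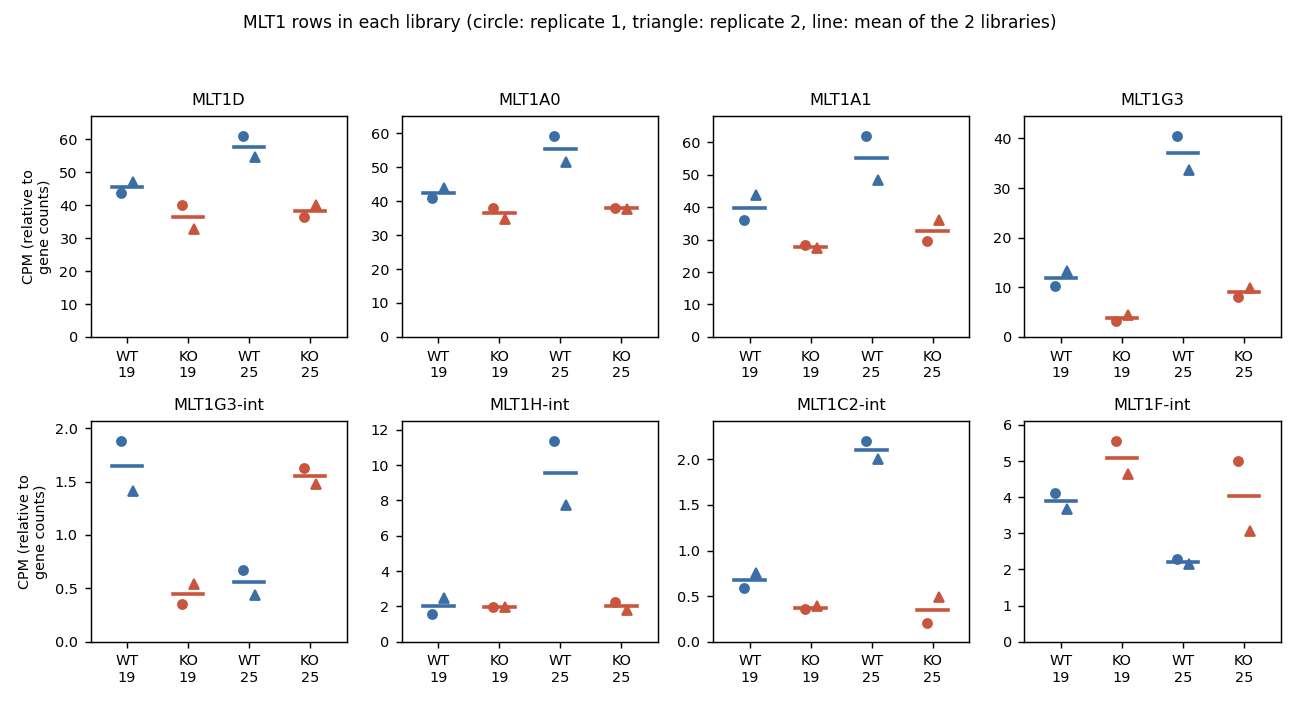
MLT1 rows in each library, in CPM (relative to gene counts), with genotype and age in dpp on the x axis. WT at 25 dpp is the high group for MLT1D, MLT1A0, MLT1A1, MLT1G3, MLT1H-int and MLT1C2-int, and MLT1G3-int has its low libraries in KO at 19 dpp and WT at 25 dpp.

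Some internal MLT1 rows had their highest level in WT at 25 dpp. MLT1H-int had 11.4 and 7.71 CPM there and 1.55 to 2.48 in the other 6 libraries, and fell in KO at 25 dpp by 2.22 (SE 0.249, edgeR adjusted p = 1.32e-05), with a difference of −0.04 (SE 0.284, edgeR adjusted p = 0.949) at 19 dpp. MLT1C2-int had 2.20 and 2.00 in WT against 0.207 and 0.492 in KO at 25 dpp, a fall of 2.63 (SE 0.368, edgeR adjusted p = 5.19e-05) that rests on 7 and 13 counts in KO. MLT1G-int had 2.00 and 1.68 in WT against 0.177 and 0.530 in KO at 25 dpp and fell by 2.44 (SE 0.486, edgeR adjusted p = 0.00113). It was also lower in KO at 19 dpp, by 2.38 (SE 0.676, edgeR adjusted p = 0.0297), with a WT mean of only 0.740 CPM. MLT1C2-int differed by −0.84 (SE 0.437, edgeR adjusted p = 0.208) at that age. In the opposite direction, MLT1F-int had 2.28 and 2.15 in WT against 4.99 and 3.07 in KO at 25 dpp and rose by 0.87 (SE 0.233, edgeR adjusted p = 0.00576). That rise was 0.47 and did not pass without replicate 1 of KO at 25 dpp, the library with epididymis genes, and was 0.48 and did not pass with TMM factors. At 19 dpp MLT1J-int had 5.05 and 12.1 in WT against 2.27 and 1.57 in KO and fell by 2.19 (SE 0.498, edgeR adjusted p = 0.0382), a call that ended without 6 of the 8 libraries and was −1.42 without replicate 2 of WT at 19 dpp.

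Of 10 MLT2 rows, ERVL LTRs and not MaLRs, 4 fell and 1 rose in KO at 25 dpp, where 25.2% of all repeat rows fell and 23% rose, with a median of −0.39. At 19 dpp 3 fell and 1 rose, where 14.2% and 3.04% of all repeat rows did. MLT2B3 had 16.0 and 32.3 CPM in WT against 4.66 and 4.10 in KO at 19 dpp (−2.47, SE 0.532, edgeR adjusted p = 0.0435), and 38.7 and 39.8 in WT against 7.50 and 15.8 in KO at 25 dpp (−1.76, SE 0.493, edgeR adjusted p = 0.0400). WT lay above KO at both ages, with a wide spread between replicates, and each of these calls ended without 5 of the 8 libraries, at values of −2.56 to −1.87 and −1.78 to −1.31. MLT2B4 fell by 0.51 at both ages (SE 0.168 and 0.164, edgeR adjusted p = 0.0474 and 0.0180), from 10.2 and 9.12 to 6.66 and 6.93 at 19 dpp and from 10.4 and 10.03 to 6.47 and 7.95 at 25 dpp. The call at 19 dpp ended without any 1 library of 19 dpp or of WT at 25 dpp (−0.59 to −0.42), and the call at 25 dpp without the first WT library (−0.48) or the first KO library (−0.36) of that age. MLT2F rose instead. It had 8.84 and 6.61 in WT against 13.0 and 10.8 in KO at 19 dpp (0.62, SE 0.198, edgeR adjusted p = 0.0430), and 4.72 and 5.76 in WT against 9.18 and 6.97 in KO at 25 dpp (0.63, SE 0.200, edgeR adjusted p = 0.0162). The first did not pass without replicate 2 of WT (0.42) or replicates 1 (0.48) and 2 (0.76) of KO at 19 dpp, and the second, which passed in none of the following, was 0.49 without the first WT library of 25 dpp, 0.41 without the first KO library of that age, and 0.24 with TMM factors.

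MLTR rows had 3 of 20 lower and none higher in KO at 19 dpp by edgeR, and 4 lower and 3 higher at 25 dpp. These shares, 15% lower at 19 dpp and 20% lower and 15% higher at 25 dpp, are near or below those of all repeat rows (14.2% lower at 19 dpp, 25.2% lower and 23% higher at 25 dpp). MLTR14 had 62.4 and 63.3 CPM in WT against 37.0 and 36.2 in KO at 19 dpp, and 75.7 and 71.9 in WT against 42.5 and 50.5 in KO at 25 dpp. It fell by 0.78 (SE 0.116, edgeR adjusted p = 5.07e-04) and by 0.67 (SE 0.115, edgeR adjusted p = 2.72e-04), and passed at both ages without each library in turn and with TMM and DESeq2 factors. MLTR31A_MM had 2.25 and 4.25 in WT against 1.02 and 0.452 in KO at 19 dpp (−2.23, SE 0.457, edgeR adjusted p = 0.0135), which did not pass without replicate 2 of KO (−1.68). MLTR18A_MM rose in KO at 25 dpp by 0.86 (SE 0.323, edgeR adjusted p = 0.0372), from 0.753 and 0.659 to 1.33 and 1.25, a call that ended without any 1 library of 25 dpp (0.77 to 0.97) and with TMM factors (0.46). MLTR11A and MLTR11B, next in level to MLTR14, passed at neither age. MLT-int, a row named without a number, had 7.99 and 10.2 in WT against 3.91 and 4.10 in KO at 19 dpp, and 14.5 and 12.4 in WT against 4.08 and 7.54 in KO at 25 dpp. It fell by 1.18 (SE 0.257, edgeR adjusted p = 0.0122) and by 1.23 (SE 0.245, edgeR adjusted p = 0.00164), where the first did not pass without replicate 1 (−1.15) or 2 (−1.22) of KO at 19 dpp.

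Host genes known to act on MERVL were listed for comparison. Of 15 activators of MERVL and of the 2-cell state that have a row, 3 passed the filter. Of these 3, 2 fell and none rose in KO at 19 dpp, where 14.6% of genes tested fell and 5.5% rose. At 25 dpp 1 rose and none fell, where 38.5% of genes rose and 30.4% fell. With TMM factors none rose and 1 fell at 25 dpp. Only Dppa4 of these 3 is described below, and it was not the row that fell with TMM factors. Duxf3, the row of DUX, had 3 to 59 counts per library, the highest in replicate 1 of WT at 25 dpp, and was not tested. Obox2 and Obox3 had no count, and each of the 6 Zscan4 rows had at most 0.207 CPM. Dppa4, which activates the Dux genes together with Dppa2, had 13.0 and 9.06 in WT against 4.13 and 5.88 in KO at 19 dpp, and 2.76 and 4.15 in WT against 7.50 and 7.08 in KO at 25 dpp. It fell by 1.13 (edgeR adjusted p = 0.0437) at 19 dpp and rose by 1.08 (edgeR adjusted p = 0.0178) at 25 dpp, the second being 0.70 and not past the threshold with TMM factors. Genes of the 2-cell embryo, 16 rows, summed to 0.768 to 2.62 CPM in each library, most of it from Sp110, and Zfp352, Tdpoz1 and Tcstv1 had no count in any library.

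Of 21 repressors of MERVL, 10 fell and none rose in KO by edgeR at 19 dpp, where 14.6% of 23353 genes tested fell and 5.5% rose, and the median was −0.50 against −0.05 for all genes. At 25 dpp 8 rose and 5 fell, where 38.5% of genes rose and 30.4% fell, with a median of 0.32 against 0.34. With TMM factors the counts at 25 dpp were 5 higher and 9 lower. Hdac1, a histone deacetylase, stood at 158 and 152 CPM in WT against 67.4 and 84.5 in KO at 19 dpp, and at 216 and 218 in WT against 128 and 138 in KO at 25 dpp. Chaf1a, the large subunit of the chromatin assembly factor CAF-1, had 59.4 and 78.6 in WT against 27.8 and 41.8 in KO at 19 dpp, and 256 and 216 in WT against 58.3 and 59.6 in KO at 25 dpp. Both were lower in KO at both ages, by 1.03 and 0.71 for Hdac1 (edgeR adjusted p = 0.00414 and 0.00312) and by 0.99 and 2.00 for Chaf1a (edgeR adjusted p = 0.0172 and 2.02e-04). Trim28, the corepressor of KRAB zinc finger proteins, had 428 and 449 in WT against 290.1 and 315 in KO at 19 dpp and 525 and 547 in WT against 411 and 398 in KO at 25 dpp, lower by 0.54 and 0.40 (edgeR adjusted p = 0.0235 and 0.0226). Ehmt1, a histone methyltransferase for H3 lysine 9, rose by 1.96 (edgeR adjusted p = 2.67e-04) at 25 dpp, from 20.2 and 32.9 to 114 and 92.0, with 113 and 92.2 in WT against 115 and 115 in KO at 19 dpp. It thus had its low value in WT at 25 dpp, as did the sums of Sertoli, spermatogonial, myoid and endothelial cell genes. The part of the host genes or of cell content in the repeat levels was not tested.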

How the data were processed

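Per the labels' protocols, Trizol and DNase were used on whole testis RNA before stranded poly(A) libraries were made. The authors deposited raw counts per gene and repeat family for each of 8 libraries, and STAR 2.7.0a, featureCounts 1.5.1 and mm10 are named per the submitters' processing notes. How multi-mapping reads, strand and the repeat annotation were handled is not given in the sources used here. Gene totals, 22515812 to 50445334 per library, served as library sizes, with no further factor, and levels in CPM are relative to them. EdgeR 4.0.16 (R 4.3.3, limma 3.58.1) was fitted to the repeat rows passing filterByExpr with quasi-likelihood dispersions (4 residual degrees of freedom) for 5 contrasts, and genes were fitted likewise. All 4 groups shared an estimate of the spread, although replicates differed unequally. Over the repeat rows tested, the chi-square per degree of freedom between replicates was 55.7 for WT and 5.32 for KO at 19 dpp. At 25 dpp it was 19.6 for WT and 50.9 for KO. P-values were adjusted by Benjamini-Hochberg. In counts simulated for KO against WT at 19 dpp over 1054 rows, 37.3% of 1.5-fold, 79.1% of 2-fold and 100% of 4-fold changes were recovered. Of the calls in these counts 4% were false. Such rates hold for the simulated counts only. They do not give the share of false calls in the libraries, where calls changed with the scaling and with single libraries left out. With 2 libraries against 2 the smallest exact permutation p is 0.333.

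The families, gene lists and markers were chosen with earlier results of these data known. Rows named are every MERVL and MT2 row, the 3 of highest mean level in each other name group, and, in KO against WT at each age and between ages in WT, the 4 largest called changes in each direction with no overlap of libraries and 1 CPM or more in the group of higher mean. Host genes were named as up to 4 called members per list, some by p and some by level, with Dnmt3a. Alternatives were other scalings (TMM, DESeq2 1.42.0 size factors, the sum of Sertoli cell genes), filters and tests (DESeq2, limma-voom), 1 fit of repeat and gene rows, only the groups compared, a replicate block and leaving out each library.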

Additional observations from a re-analysis of the deposited data

Results flagged for a closer look

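By the edgeR test of a change with age, the KO difference rose in 7.25% and fell in 2.9% of the 138 rows tested. Among all repeat rows these shares were 11.4% and 4.46%. Called rows not described above were ORR1F-int, MLT2B5 and MLTR18D_MM, which rose, and MLT1E1A, MLT1E3 and MLT1H, which fell. In 8 of the rows described above, listed because they passed, the KO difference changed between 19 and 25 dpp by that test. It grew by 0.55 on the log2 scale for MTA_Mm-int, from 0.31 to 0.85 (adjusted p = 0.0203), by 0.56 for MTB-int, from 0.12 to 0.67 (adjusted p = 0.0411), by 0.67 for ORR1B1-int, from 0.29 to 0.96 (adjusted p = 0.00690), and by 0.70 for ORR1D-int, from 0.00 to 0.70 (adjusted p = 0.0452). With TMM factors these 4 changes were 0.10, 0.11, 0.22 and 0.25 and did not pass. Of these 4, MTA_Mm-int did not pass without replicate 2 of KO at 19 dpp (0.46), replicate 1 of WT at 25 dpp (0.45) or replicate 1 of KO at 25 dpp (0.49), ORR1B1-int not without replicate 2 of KO at 19 dpp (0.62), and MTB-int and ORR1D-int each not without any 1 of 6 libraries. ORR1C2-int changed by 0.87, from −0.83 to 0.03 (adjusted p = 0.0173), and ORR1D1-int by 1.12, from −0.73 to 0.39 (adjusted p = 0.00134). With TMM factors ORR1C2-int was 0.41 and did not pass while ORR1D1-int passed, and with DESeq2 size factors neither passed (0.22 and 0.48). ORR1C2-int also did not pass without the second KO library of 19 dpp (0.70), the first WT library of 25 dpp (0.90) or the second KO library of 25 dpp (0.78). MLT1G3-int changed by 3.27, from −1.82 to 1.46 (adjusted p = 0.00134), and MLT1H-int by −2.18, from −0.04 to −2.22 (adjusted p = 0.00418). With TMM factors these were 2.82 and −2.65 and passed, and MLT1H-int was −2.17 and did not pass without replicate 2 of KO at 19 dpp.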

How the results depend on the processing

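The counts of rows called are given as higher and lower, in the order KO against WT at 19 dpp, at 25 dpp, 25 against 19 dpp in WT and in KO, and the change of the KO difference. With all libraries and gene totals they were 2 and 30, 18 and 53, 35 and 18, 4 and 0, and 10 and 4. TMM factors of the genes gave 3 and 18, 3 and 85, 78 and 3, 6 and 0, and 2 and 26, and DESeq2 size factors 3 and 16, 3 and 103, 101 and 0, 7 and 0, and 1 and 49. The sum of Sertoli cell genes as library size gave 0 and 100, 0 and 136, 129 and 0, 7 and 0, and 1 and 65. TMM factors of the repeat rows gave 6 and 16 at 19 dpp and 10 lower for the change. DESeq2's Wald test gave 1 higher at 19 dpp and 5 higher for the change, and 1 fit of repeat and gene rows 0 and 14 at 19 dpp, 11 lower in WT and 3 and 2 for the change. Fitting only the libraries compared gave 12 and 1 in KO. Leaving out 1 library gave 0 to 3 and 3 to 31, 9 to 18 and 36 to 54, 12 to 37 and 7 to 16, 0 to 10 and 0 to 0, and 2 to 9 and 0 to 7. The labels number the libraries 1 and 2 in each group, but same-numbered libraries did not deviate together (correlations −0.103 to 0.258), and the fit with the replicate block gave 1 and 25, 17 and 53, 33 and 17, 4 and 0, and 6 and 3. Both filters on low counts, limma-voom and leaving out the MLTR rows moved none of these counts by over 1.5 times. Directions turned as follows (log2). At 19 dpp MERVL-int was −0.021 without replicate 1 of KO, and with Sertoli scaling MERVL-int was −0.67, MT2_Mm −0.60, MTA_Mm-int −0.54, MLT2F −0.20, ORR1A0-int −0.43 and ORR1B1-int −0.55. At 25 dpp MTA_Mm was −0.086 with TMM factors, and with DESeq2 size factors MERVL-int was −0.10, MT2_Mm −0.048, MTA_Mm −0.27 and ORR1A0-int −0.14. ORR1C2-int and ORR1D1-int were −0.37 and −0.0058 with TMM factors and −0.55 and −0.19 with DESeq2 size factors, and ORR1C2-int was −0.0011 when the second WT library of 25 dpp was left out and −0.052 when the second KO library was. ORR1C1 was −0.36 with TMM factors and −0.55 with DESeq2 size factors at 25 dpp, −0.024 when the second WT library of 25 dpp was left out, and at 19 dpp −0.015 and −0.16 when the second WT or the first KO library was. With Sertoli scaling at 25 dpp MERVL-int was −1.68, MT2_Mm −1.65, MTA_Mm-int −1.31, MTA_Mm −1.86, MTB-int −1.49, ORR1B1-int −1.21, ORR1A0-int −1.76, ORR1D-int −1.47, MLT2F −1.54, MLT1G3-int −0.75, MLT1F-int −1.34, MLTR18A_MM −1.32, ORR1C1 −2.15, ORR1C2-int −2.14 and ORR1D1-int −1.77, and at 19 dpp ORR1C1 was −0.83. In WT between the ages MTA_Mm was 0.11 and MTC-int 0.18 with TMM factors, and with DESeq2 size factors MERVL-int was 0.18, MT2_Mm 0.15, MTA_Mm 0.31, MTB-int 0.13, MTC-int 0.38 and MLT2F 0.10. With Sertoli scaling they were 1.05, 1.04, 1.19, 0.99, 1.27 and 0.99, and MTA_Mm-int was 0.80, ORR1B1-int 0.73, ORR1D-int 0.65, MLT1G3-int 0.055 and MLT1F-int 0.75. The change of the KO difference was −0.094 for MTA_Mm-int and −0.082 for MTB-int with DESeq2 size factors, and −0.76, −0.75, −0.66, −0.61, −0.44 and −0.20 for MTA_Mm-int, MTB-int, ORR1B1-int, ORR1D-int, ORR1C2-int and ORR1D1-int with Sertoli scaling. The cause of these changes was not tested. Internal MLT1 rows with under 10 counts in a library limit what the depth can show.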
